A study of Mus musculus with 6 samples.

Results

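The genes described here are Ttc30b, its paralogues Ttc30a1 and Ttc30a2, and 7 further genes of the intraflagellar transport B complex (IFT-B), namely Ift46, Ift52, Ift57, Ift74, Ift81, Ift88 and Ift172. They are 10 of the 45792 gene rows of the count table and were picked out by symbol. The group was chosen by the lower count of Ttc30b in the mutant hearts of these same libraries, to see whether its paralogues and partners were lower too. The values of Ttc30b are therefore given as a description with no test, and no test over the group is given. RNA was sequenced from whole hearts of C57BL/6-labelled mouse embryos at embryonic day 13.5, with 3 control and 3 mutant hearts. The mutants carried Tie2Cre and were homozygous for a floxed Ino80 allele, while the controls are labelled wild-type, although the paper counts every other genotype of the litters as control, and its methods describe mixed backgrounds and a cross in which every embryo inherits a floxed allele. Tie2Cre acts in endothelium and endocardium and in cells that descend from them, so the other cells of a mutant heart keep Ino80, which encodes the ATPase of a chromatin remodelling complex.

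Cilia are built and maintained by intraflagellar transport, in which trains of protein complexes carry cargo along the microtubules of the cilium. IFT-B moves outward with the kinesin-2 motor, and IFT-A takes part in the return with the dynein-2 motor. The Ttc30 genes encode IFT70, a protein made of tetratricopeptide repeats that is part of the IFT-B core. Most vertebrate cells carry a single primary cilium that is needed for Hedgehog signalling, and heart development depends on primary cilia.

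The hearts gave between 28948836 and 89675692 counts, the most in mutant 1 and the fewest in mutant 3. Levels are given as CPM (counts per M counts of the library, after TMM scaling) and differences as log2 fold changes of mutant over control with the standard error (SE), from edgeR's quasi-likelihood fit of 17125 genes. The labels do not say whether the hearts came from separate litters, so p-values measure the spread between these hearts. Ino80 itself was counted at 30.2, 31.6 and 32.7 CPM in the controls and at 36.5, 33.7 and 31.8 CPM in the mutants (log2 fold change 0.11, SE 0.08, adjusted p = 0.47 by edgeR). The groups overlapped, so the Ino80 count did not separate them, and directions below rest on the labels. The count covers the whole gene, of which the floxed part is 1 exon, and all cells of the heart. All 5 endothelial markers were detected, with a summed level of 629 to 773 CPM in controls and 672 to 729 CPM in mutants. The 5 cardiomyocyte markers summed to 16995 to 20839 CPM and 17477 to 18271 CPM.

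Ttc30b reached 26.9, 23.7 and 22.3 CPM in controls 1 to 3, while mutants 1 to 3 had 11.4, 11.6 and 10.8 CPM. The highest mutant stood well below the lowest control, and the mutants lay close together. The mutant mean of 11.3 ± 0.395 CPM (SD, n = 3) was 46.5% of the control mean of 24.3 ± 2.35 CPM (SD, n = 3). On the log2 scale the difference was -1.11 (SE 0.10, 95% confidence interval -1.33 to -0.88). In whole hearts, fewer cells that use a gene and less RNA per cell cannot be told apart. Of the 10180 tested genes with a mean of at least 10 CPM, 44 had a lower log2 fold change. The gene (ENSMUSG00000075273.4) is a single exon of 2737 bases on the minus strand of GRCm38 (chr2:75935849-75938585).

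Ttc30a2 was the paralogue with the larger difference. It was counted at 6.44, 5.82 and 6.42 CPM in controls and at 4.42, 4.14 and 4.41 CPM in mutants, so that every mutant heart was below every control heart. The mutant mean was 69.4% of the control mean, and the log2 fold change was -0.53 (SE 0.13, 95% confidence interval -0.82 to -0.23). The adjusted p was 0.11 by edgeR, above the threshold of 0.05, and 0.034 by DESeq2, below it. Ttc30a2 (ENSMUSG00000075272.4) also has 1 exon and lies on the same strand (chr2:75975740-75978170), with its start 39.6 kb from that of Ttc30b.

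Ttc30a1 differed least among the 3 copies. Its controls were at 16.3, 15.8 and 14.9 CPM and its mutants at 13.7, 13.5 and 13.5 CPM, which again did not overlap. The mutant mean was 86.4% of the control mean, with a log2 fold change of -0.21 (SE 0.09, 95% confidence interval -0.41 to -0.01) and an adjusted p of 0.24 by edgeR and 0.31 by DESeq2. Ttc30a1 (ENSMUSG00000075271.4) lies beside Ttc30a2 (chr2:75978247-75981967, minus strand), and 76 bases separate them.

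**Figure D1:**
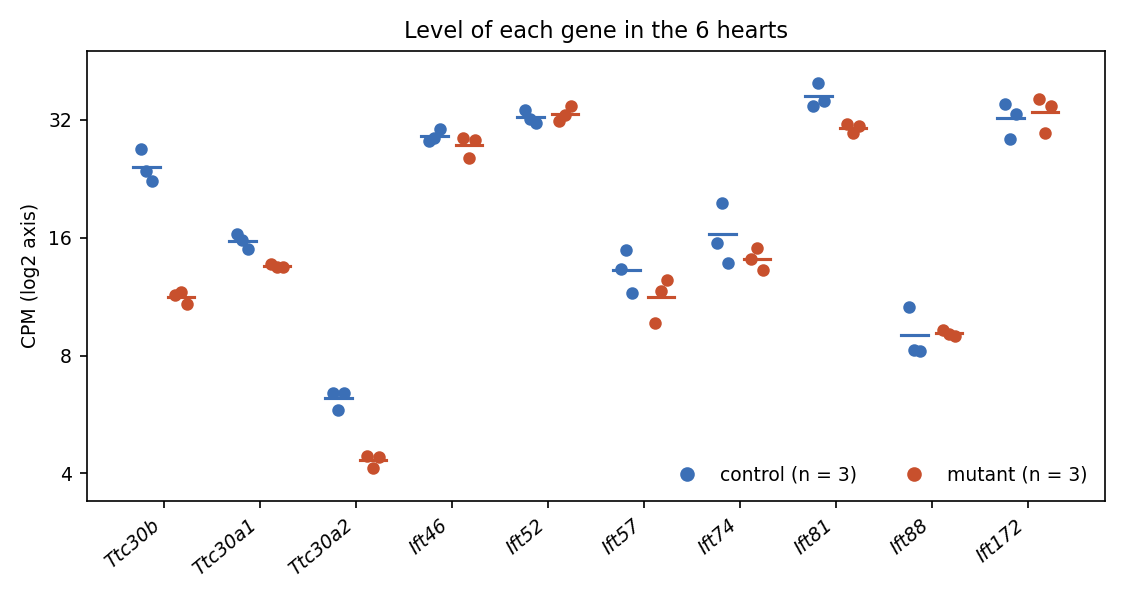
CPM (log2 axis) of the 10 genes, with 1 point per heart for controls and mutants (n = 3 each) and a bar at the group mean. The groups are apart for Ttc30b, Ttc30a1, Ttc30a2 and Ift81, all lower in mutants, and overlap for the other 6 genes.

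The 3 copies are close in sequence, which bears on how far reads can be assigned to each of them. Each encodes 664 residues, and the coding sequence of Ttc30b is identical to that of Ttc30a1 at 94.9% of bases (102 differ) and to that of Ttc30a2 at 94.9% (101 differ). At the level of residues, identity to Ttc30b was 94.3% for Ttc30a1 and 94.9% for Ttc30a2. Windows of 1 read length, 76 bases, show the extremes. The stretch in which Ttc30b and Ttc30a1 differ most is shown first, as coding bases 1159 to 1234 in GRCm38 (minus strand, chr2:75937174-75937249 for Ttc30b, chr2:75980504-75980579 for Ttc30a1 and chr2:75976933-75977008 for Ttc30a2). Capitals mark bases that differ from Ttc30b, 17 in Ttc30a1 and 15 in Ttc30a2.
Ttc30b: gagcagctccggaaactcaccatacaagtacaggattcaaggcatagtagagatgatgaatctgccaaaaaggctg
Ttc30a1: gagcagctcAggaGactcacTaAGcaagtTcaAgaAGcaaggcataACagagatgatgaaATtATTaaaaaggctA
Ttc30a2: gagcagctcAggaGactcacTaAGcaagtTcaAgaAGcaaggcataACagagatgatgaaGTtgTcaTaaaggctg
A read from this stretch names its copy. The opposite case is coding bases 121 to 196 (chr2:75938212-75938287 in Ttc30b), where the 3 genes have the same letters and a read cannot be placed.
All 3 copies: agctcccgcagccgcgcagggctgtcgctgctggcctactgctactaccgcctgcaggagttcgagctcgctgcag

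Of all 76-base windows of the transcript, 25.3% in Ttc30b, 26.4% in Ttc30a1 and 45.4% in Ttc30a2 matched a transcript of another gene exactly, and those other genes were the other Ttc30 copies alone. Within the coding sequence the shares were 35.1%, 50.1% and 55.8%. The reads were paired, and a mate or an unlike neighbouring stretch can place more of them than single windows show. How reads that fit several copies were counted is not given in the sources used here, so the split between the copies is uncertain, and its part in the lower counts of Ttc30a1 and Ttc30a2 was not tested.

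Summed over the 3 copies, which does not depend on how placed reads were split among them, the family was counted at 49.7, 45.3 and 43.6 CPM in controls and at 29.6, 29.2 and 28.7 CPM in mutants. The groups did not overlap, and 12.8% of all tested genes had every mutant heart below every control heart. The means were 46.2 ± 3.11 and 29.2 ± 0.428 CPM (SD, n = 3 each). Fitted as 1 gene, the sum differed by -0.66 on the log2 scale (SE 0.08). Ttc30b made up 76.3% of that difference in CPM, Ttc30a1 12.5% and Ttc30a2 11.2%. The sum contains the gene whose lower count chose the group, so its values are a description with no test.

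The makeup of the family was different in the mutants. Ttc30b held 54.1%, 52.3% and 51.1% of the family's counts in the controls and 38.6%, 39.7% and 37.7% in the mutants. The 95% Wilson intervals spanned 48.5 to 56.4% over the controls and 34.5 to 42.4% over the mutants, covering counting error only. The lower count of Ttc30b chose the group, so its lower share in mutants follows in part from that choice. The shares of the 3 copies are therefore a description with no test. The share of Ttc30a1 was 34.0 ± 0.974% in controls and 46.5 ± 0.389% in mutants (SD, n = 3 each), and that of Ttc30a2 was 13.5 ± 1.04% and 14.8 ± 0.604%. Ttc30b was thus the most counted copy in every control heart, and Ttc30a1 in every mutant heart. These counts are not corrected for length, and the exons span 2737 bases in Ttc30b and 3721 in Ttc30a1. Per kilobase of exon, Ttc30b stayed above Ttc30a1 in mutants 1 to 3 (4.17, 4.23 and 3.96 against 3.69, 3.62 and 3.62 CPM per kb).

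**Figure D2:**
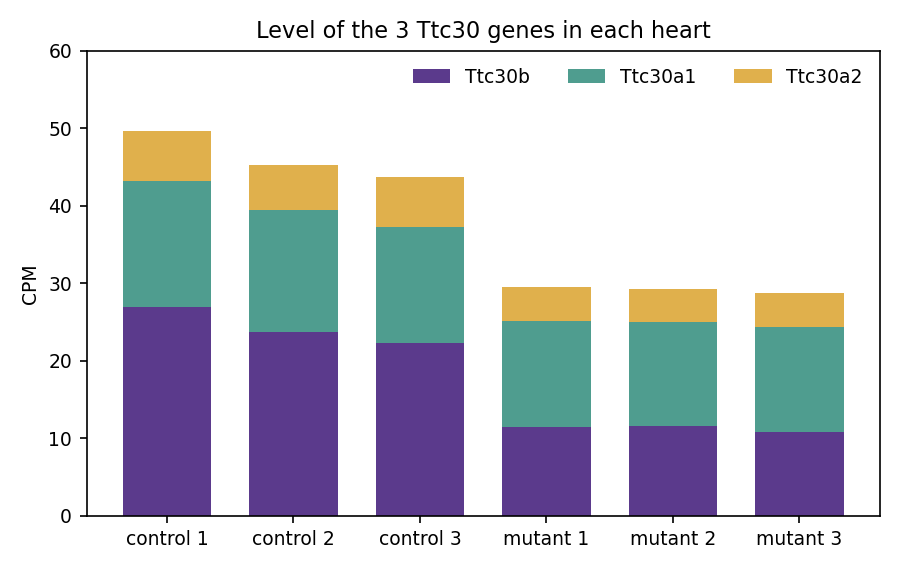
Stacked CPM of Ttc30b, Ttc30a1 and Ttc30a2 in each of the 3 control and 3 mutant hearts. The stacks reach 43.6 to 49.7 CPM in controls and 28.7 to 29.6 CPM in mutants, and the Ttc30b segment differs most.

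Ift81 was the partner gene with the largest difference. Its protein forms a pair with IFT74 that binds tubulin. Ift81 (ENSMUSG00000029469.12, chr5:122550204-122614518, minus strand) was counted at 34.7, 39.7 and 35.8 CPM in controls and at 31.2, 29.5 and 30.8 CPM in mutants. The groups did not overlap, and the mutant mean was 83.1% of the control mean. The log2 fold change of -0.27 (SE 0.08, 95% confidence interval -0.45 to -0.08) had an adjusted p of 0.15 by edgeR and 0.10 by DESeq2, so the gene did not pass.

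Ift74, which encodes the other subunit of that pair (ENSMUSG00000028576.10, chr4:94614491-94693229), was at 15.5, 19.6 and 13.8 CPM in controls and at 14.1, 15.1 and 13.2 CPM in mutants. The groups overlapped, with control 2 standing above the others, and the log2 fold change was -0.21 (SE 0.14, adjusted p = 0.43 by edgeR). Its point estimate was near that of Ttc30a1, but the 95% confidence interval of -0.52 to 0.11 included no difference.

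Ift88, Ift52 and Ift46 encode core subunits, and IFT70 binds to the IFT52 and IFT88 proteins. Ift52 (ENSMUSG00000017858.10, chr2:163017354-163046141) was counted at 33.9, 32.2 and 31.4 CPM in controls and at 31.8, 32.8 and 34.6 CPM in mutants, with a log2 fold change of 0.02 (SE 0.08, 95% confidence interval -0.15 to 0.20, adjusted p = 0.88 by edgeR). Ift88 (ENSMUSG00000040040.14, chr14:57424062-57517936) was at 10.6, 8.27 and 8.21 CPM and at 9.31, 9.10 and 8.96 CPM, with a log2 fold change of 0.01 (SE 0.13, 95% confidence interval -0.29 to 0.31, adjusted p = 0.97 by edgeR). For both genes the mutant values lay within or near the range of the controls, and a difference of the size of that of Ttc30b lies outside both intervals. Ift46 (ENSMUSG00000002031.9, chr9:44767908-44793447) was at 28.3, 28.7 and 30.3 CPM in controls and at 28.8, 25.5 and 28.5 CPM in mutants, with a log2 fold change of -0.08 (SE 0.08, 95% confidence interval -0.26 to 0.11, adjusted p = 0.62 by edgeR).

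Ift57 and Ift172 encode peripheral subunits of IFT-B, and IFT172 is the longest of them. Ift57 (ENSMUSG00000032965.8, chr16:49699233-49765126) was counted at 13.3, 14.9 and 11.5 CPM in controls and at 9.71, 11.7 and 12.4 CPM in mutants. The lowest value was in mutant 1, the deepest library, and the groups overlapped (log2 fold change -0.24, SE 0.14, 95% confidence interval -0.55 to 0.08, adjusted p = 0.37 by edgeR). Ift172 (ENSMUSG00000038564.8, chr5:31253277-31291116, minus strand) was at 35.1, 28.6 and 33.1 CPM and at 36.2, 29.6 and 34.6 CPM. These values overlapped widely, with a log2 fold change of 0.05 (SE 0.11, 95% confidence interval -0.20 to 0.31, adjusted p = 0.81 by edgeR). Exons of Ift57 and Ift88 overlap exons of the antisense genes Gm15518 over 225 bases and Ift88os over 67 bases, where the library kit, which does not mark strand, cannot tell the reads apart.

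Of the 9 genes other than Ttc30b, 0 passed the adjusted threshold by edgeR, where 0% of all tested genes did (0 of 17125). At an unadjusted p under 0.05, 3 of the 9 were lower in mutants (Ttc30a1, Ttc30a2 and Ift81), against 9.98% of all tested genes, and 0 were higher, against 9.48%. The same 3 genes had every mutant heart below every control heart, which held for 12.8% of all tested genes, and 0 had every mutant above every control, which held for 14.3%. By DESeq2, 1 of the 9 passed as lower (Ttc30a2, against 3.43% of all genes) and 0 as higher (against 2.67%). The copies of Ttc30b share sequence with it, so these counts turn in part on that family. Without the 3 Ttc30 genes, 1 of 7 partner genes was lower at an unadjusted p under 0.05, with a median log2 fold change of -0.08, and all tested genes had a median of -0.0017.

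The remaining 8 IFT-B subunits (Ift20, Ift22, Ift27, Ift80, Cluap1, Hspb11, Traf3ip1 and Ttc26) extended the comparison. None had an unadjusted p under 0.05 by edgeR or passed by DESeq2, and their log2 fold changes ran from -0.14 for Ttc26 to 0.20 for Traf3ip1, with a median of -0.00084. Over all 15 IFT-B genes outside the Ttc30 family, 8 log2 fold changes were below 0 and 7 above, with a median of -0.0042. The 6 IFT-A genes had a median of 0.05, and 0 of them had an unadjusted p under 0.05 by edgeR or passed by DESeq2. Of all tested genes, 9.98% were lower and 9.48% higher at that level by edgeR, and 3.43% and 2.67% passed by DESeq2.

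**Figure D3:**
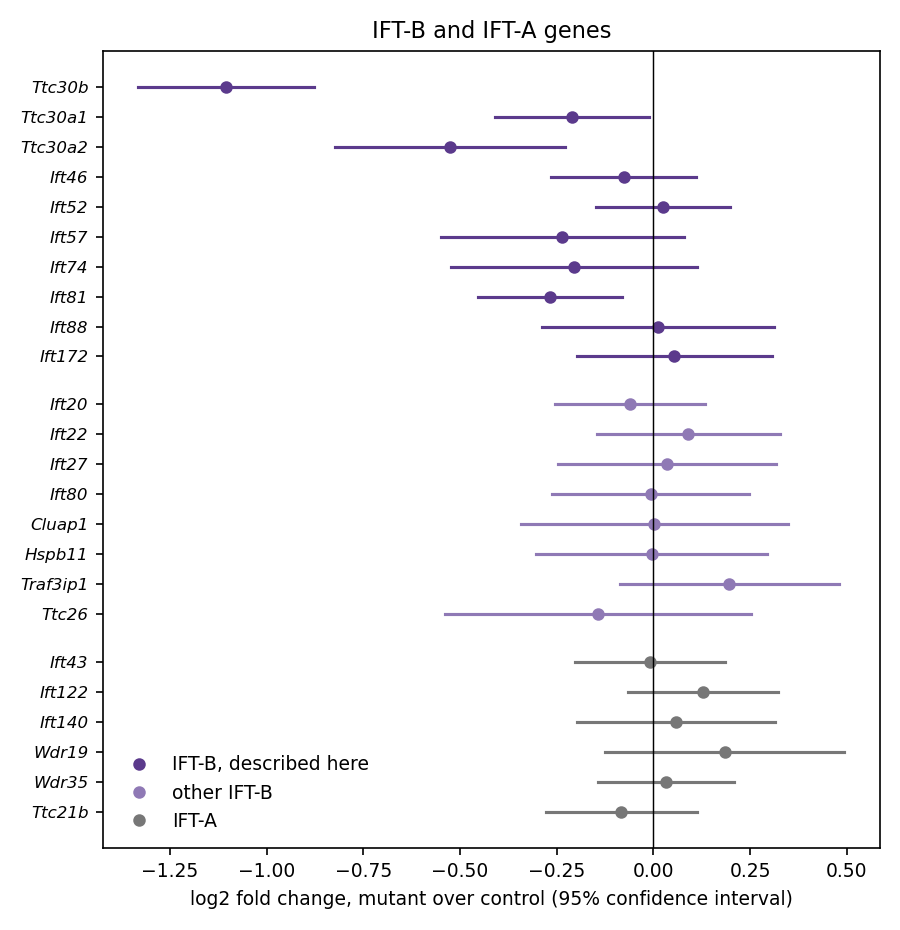
Log2 fold change of mutant over control for 18 IFT-B and 6 IFT-A genes, with the 95% confidence interval of the edgeR fit as a line. The intervals are not adjusted for the number of genes. That of Ttc30b is a description only, because its lower count chose the group. Apart from Ttc30b, the intervals of Ttc30a1, Ttc30a2 and Ift81 lie below 0, and those of the remaining 20 genes include 0.

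The other genes of the cilium had log2 fold changes on both sides of 0. Over all tested genes, 9.98% were lower and 9.48% higher at an unadjusted p under 0.05 by edgeR. Of the 10 genes of the transport motors, 0 had an unadjusted p under 0.05 by edgeR, and their median log2 fold change was -0.0089. Among 10 genes of the BBSome, a cargo adaptor carried by the transport trains, 1 was lower at that level (Lztfl1, log2 fold change -0.26, SE 0.11, adjusted p = 0.24 by edgeR). The 15 transition zone genes, which encode the gate at the base of the cilium, had 2 lower and 2 higher. Nphp4 was at 6.54, 5.96 and 4.14 CPM in controls and at 8.38, 8.23 and 9.02 CPM in mutants, with no overlap between the groups (log2 fold change 0.62, SE 0.18, adjusted p = 0.14 by edgeR and 0.030 by DESeq2). Mks1 was the other higher gene (log2 fold change 0.45, SE 0.19) and Rpgrip1l was among the lower ones (-0.29, SE 0.11), and neither passed by either tool.

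Of 10 genes of the ciliary membrane and its small GTPases, 1 had an unadjusted p under 0.05. This was Gpr161, a receptor in the cilium that holds Hedgehog signalling down, at 15.4, 13.9 and 15.3 CPM in controls and at 21.3, 19.7 and 18.8 CPM in mutants (log2 fold change 0.42, SE 0.09, adjusted p = 0.091 by edgeR and 0.014 by DESeq2). Of 12 Hedgehog pathway genes, 8 had enough counts to be tested, and Shh, Ihh, Gli1 and Hhip did not. Smo, the signal transducer that acts in the cilium, was at 69.9, 69.9 and 72.4 CPM in controls and at 79.7, 83.1 and 84.6 CPM in mutants (log2 fold change 0.22, SE 0.06, adjusted p = 0.13 by edgeR). It was the only one of the 8 with an unadjusted p under 0.05. Of 12 genes of motile cilia, 6 had enough counts to be tested and 0 were at that level. The highest control means in that list were 18.9 CPM for Rfx3 and 11.4 CPM for Rfx2, and its other genes were far lower. Over the 66 tested primary cilium genes outside the Ttc30 family, 33 log2 fold changes were below 0 and 33 above, and the median was -0.0012. At an unadjusted p under 0.05 by edgeR, 4 of the 66 were lower, against 9.98% of all tested genes, and 3 were higher, against 9.48%.

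**Figure D4:**
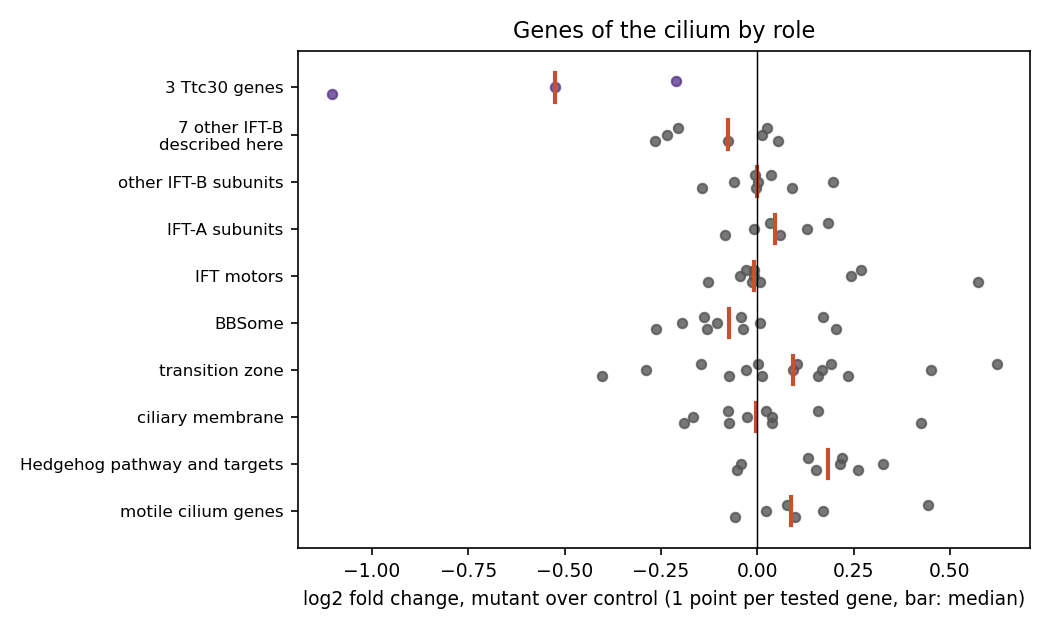
Log2 fold change of mutant over control for each tested gene of the cilium, grouped by role, with a bar at the median of each group. The 3 Ttc30 genes lie at -1.11, -0.53 and -0.21, while the medians of the other groups lie between -0.08 and 0.18.

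Compared per kilobase of merged exons, which allows levels to be set side by side between genes, Ttc30b was the second most abundant of the 10 transcripts in controls and the sixth in mutants. Ift52 led the controls with 11.6 ± 0.471 CPM per kb, ahead of Ttc30b with 8.87 ± 0.859 CPM per kb (SD, n = 3 each). Ift81 (6.29), Ift74 (6.15), Ift172 (4.87), Ift57 (4.63) and Ift46 (4.53 CPM per kb) followed, and neighbours within this run had overlapping ranges. Ttc30a1 (4.21), Ttc30a2 (2.56) and Ift88 (1.95 CPM per kb) came last, and their ranges did not overlap. In mutants Ttc30b was at 4.12 ± 0.144 CPM per kb, and Ift52 still led with 11.8 ± 0.512 CPM per kb. The mutant range of Ttc30b (3.96 to 4.23) overlapped those of Ift46 (3.97 to 4.49) and Ift57 (3.39 to 4.35 CPM per kb), so its place there is not settled. The levels of the Ttc30 genes also turn on how reads that fit several copies were counted, so their places among the other genes are uncertain.

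The lower count at the Ttc30 locus was compared with its neighbourhood, because Ttc30b, its copies and the floxed Ino80 gene all lie on chromosome 2, the last 43.5 Mb away. Agps, the nearest expressed protein-coding neighbour outside the family, was at 98.0, 93.7 and 90.8 CPM in controls and at 101.8, 99.3 and 97.7 CPM in mutants (log2 fold change 0.08, SE 0.06). Of 13 tested genes outside the Ttc30 family that start within 1 Mb of Ttc30b, 3 were lower (9.98% over all tested genes) and 0 higher (9.48%) at an unadjusted p under 0.05. Nfe2l2, which encodes the oxidative stress factor NRF2, was the one that passed by DESeq2. It was at 71.4, 70.3 and 63.5 CPM in controls and at 53.9, 51.9 and 44.1 CPM in mutants (log2 fold change -0.45, SE 0.09, adjusted p = 0.085 by edgeR and 0.0040 by DESeq2). The pseudogene Gm13653 (log2 fold change -0.61, SE 0.23) and Cyct, which stayed below 2 CPM in every heart, were the other 2. The median over the 13 genes was -0.11, and that over 1366 tested genes of chromosome 2 was -0.0012.

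**Figure D5:**
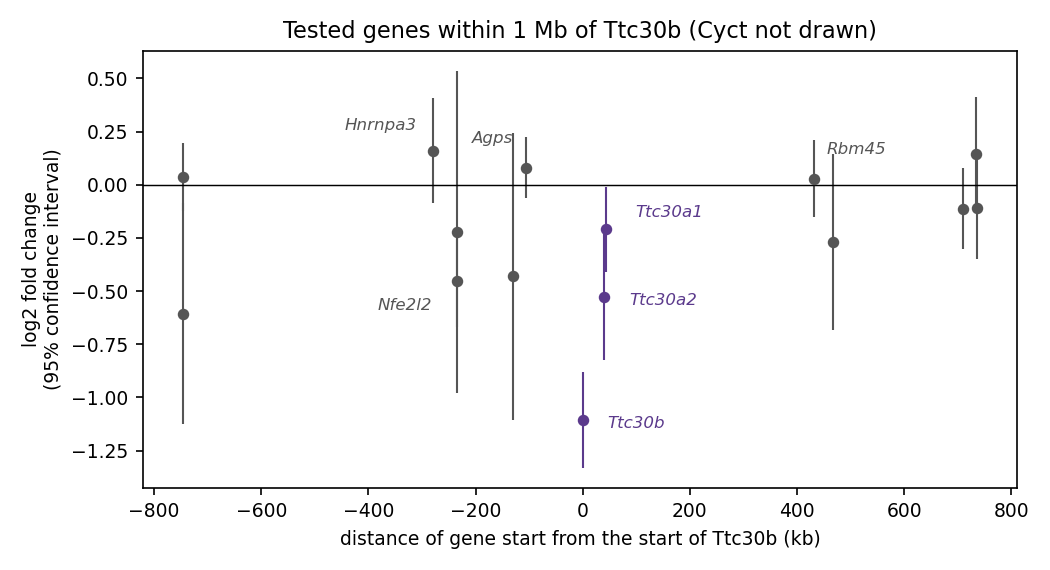
Log2 fold change of mutant over control with its 95% confidence interval for tested genes, against the distance of each gene's start from that of Ttc30b in kb. Ttc30b lies lowest at -1.11, Nfe2l2 is at -0.45 and Agps at 0.08, and Cyct is left out because its counts were very low.

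The genes whose level followed that of Ttc30b most closely over the 6 hearts, by Pearson's r of log2(CPM + 1) among 14632 genes, were Azin1 (r = 0.992), Cd274 (0.991), Car8 (0.989), Serpinb9 (0.988) and Sdcbp (0.986). With 6 points in 2 groups, such values mostly reflect the gap between the groups, and 244 genes exceeded 0.9, so r is given as a description only. The values were 0.975 for Ttc30a1 and 0.967 for Ttc30a2. Among the partners r was 0.862 for Ift81, 0.617 for Ift57, 0.543 for Ift74 and 0.446 for Ift46, and it was near or below 0 for Ift88 (0.053), Ift172 (-0.18) and Ift52 (-0.18).

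Summed levels of the 5 epicardial markers did not overlap (137 to 149 CPM in controls, 154 to 174 CPM in mutants), with 1 marker lower and 1 higher at an unadjusted p under 0.05. The higher one was Upk3b (mean 42.2 CPM in controls and 62.7 CPM in mutants, adjusted p = 0.083 by edgeR and 0.0011 by DESeq2). Upk1b was the lower one (8.35 and 6.87 CPM), and Wt1, Tbx18 and Tcf21 overlapped between the groups. Summed levels of the 5 erythroid markers varied most (4109 to 18255 CPM in controls, 2735 to 4994 CPM in mutants, 3 lower and 1 higher) and were highest in control 3. Summed markers of smooth muscle, cushion mesenchyme, macrophages and neural crest overlapped between the groups, but some single markers differed at an unadjusted p under 0.05. Among all tested genes, 9.98% were lower and 9.48% higher at that level by edgeR. Of the 5 smooth muscle markers 2 were lower, Myh11 at 19.0% and Actg2 at 26.3% of control by the fitted log2 fold change, and 1 was higher (Cnn1). The adjusted p of Myh11 and Actg2 was 0.0020 and 0.0085 by DESeq2, and 0.13 and 0.15 by edgeR. Both had low levels that overlapped between the groups. Myh11 was at 0.604, 2.96 and 4.75 CPM in controls and at 0.497, 0.705 and 0.342 CPM in mutants. Actg2 was at 1.02, 2.04 and 5.22 CPM in controls and at 0.616, 1.03 and 0.513 CPM in mutants. Of the 5 cushion markers 1 was lower (Postn, 74.0% of control, adjusted p = 0.00050 by DESeq2 and 0.085 by edgeR) and 2 were higher (Twist1 and Sox9), and of the 5 macrophage markers 1 was higher (Cx3cr1). The part of these, the erythroid and the epicardial markers in the values of the Ttc30 genes was not tested. The 5 markers of multiciliated cells were near 0, at a sum of 1.27 to 2.10 CPM in controls and 1.67 to 1.94 CPM in mutants, and those of lung epithelium at 0.263 to 0.477 CPM and 0.308 to 0.508 CPM, with 1 of the 5 at 0 in every heart. Those of liver summed to at most 1.98 CPM in any heart.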

How the data were processed

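The authors prepared libraries from RNA of whole embryonic hearts with a NEBNext Ultra RNA kit, sequenced 76 bp paired ends, mapped reads to GRCm38 (mm10) with STAR 2.4.2a and GENCODE annotation, and counted reads per gene with summarizeOverlaps. The overlap mode, the strand setting and the treatment of reads with several matches are not given in the sources used here. The deposited values are raw counts, and columns were matched to hearts by sample title. A deposited DESeq2 comparison table was used for gene symbols only, and its fold changes and p-values were not used.

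The fit used edgeR 4.0.16 in R 4.3.3 (filterByExpr with a minimum count of 10 and a minimum total of 15, TMM scaling, quasi-likelihood F test, condition as the only term). Benjamini-Hochberg adjustment covered all 17125 tested genes, with a threshold of 0.05. The steps were tested on simulated data. Alternatives were RLE size factors, DESeq2 1.42.0, a minimum of 1 count, a replicate block, fits without 1 heart, and thinning to the smallest library. Total counts per heart bound precision at low levels.

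Gene models came from GENCODE vM21, which matched 45229 of 45792 identifiers. Read-length windows were compared among its transcripts rather than across the genome. Merged exons gave the lengths for levels per kb. The members, lists and tests were chosen with earlier results of these data known. Named genes are the 10 members, genes of the lists (values for at most the 4 with the smallest edgeR p in a list), Ino80, genes within 1 Mb of Ttc30b that have a protein, and the 5 genes most like Ttc30b with a mean of at least 1 CPM. Gm13653, which has no protein, Ttc26 and Traf3ip1 were named after their values were seen. Values of 1 further gene are left out here.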

Additional observations from a re-analysis of the deposited data

How the results depend on the processing

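The log2 fold change of Ttc30b lay between -1.16 and -1.02 and that of the summed family between -0.70 and -0.61 over all 11 alternatives. The number of genes passing over the whole table moved from 0 to 1013 with DESeq2, 603 with a minimum of 1 count, 14 with the replicate block, 751 without control 1 and 3 without control 2, and ranged from 0 to 751 when each heart was left out. The number of the 10 members past the threshold was 2 with DESeq2, 1 with a minimum of 1 count, 1 with the replicate block, and 0 to 1 when each heart was left out (1 without control 1). Each of these counts includes Ttc30b, whose lower count chose the group, so they are no test of it, and the other gene with DESeq2 is Ttc30a2. DESeq2 also called 2 transition zone genes, 1 ciliary membrane gene and 1 neighbour of Ttc30b, and a minimum of 1 count called 1 neighbour. The causes of these changes in calls were not tested. Ttc30a2 passed with DESeq2 alone (log2 fold change -0.53, adjusted p = 0.034), and its adjusted p ranged up to 0.29. The adjusted p of Ttc30a1 ranged from 0.23 to 0.43 and that of Ift81 from 0.10 to 0.35, neither passing in any of the 11. Ift52, Ift88 and Ift172 had log2 fold changes on both sides of 0. Replicate numbers are shared between the groups, but same-numbered hearts did not deviate together (r = 0.024, -0.084 and -0.073), so the replicate block describes a shared number only. With 3 hearts per group and a spread of 0.153 (biological coefficient of variation), small differences in the partner genes were not detectable. In the main edgeR fit 0 of 17125 genes passed, so larger differences did not pass there either.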

Other observations

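Along chromosome 2, the 10 Mb window that holds the Ttc30 genes (70 to 80 Mb) had 13 of 63 tested genes lower in mutants (20.6%) and 1 higher at an unadjusted p under 0.05 by edgeR, with a median log2 fold change of -0.12. The 13 include the 3 Ttc30 genes, and the lower count of Ttc30b chose the group, so this share is raised in part by that choice. The window before it (60 to 70 Mb) had 11 of 45 lower (24.4%) and 4 higher, and the window that holds Ino80 (110 to 120 Mb) had 13 of 76 lower and 7 higher. These were not the extremes of the chromosome: 140 to 150 Mb had 12 of 42 lower (28.6%) and 2 higher with a median of -0.16, and 160 to 170 Mb had 0 of 94 lower and 20 higher (21.3%). Over the whole chromosome, 142 of 1366 tested genes were lower and 141 higher, and among all tested genes 9.98% were lower and 9.48% higher. Within 1 Mb of the start of Ino80, 10 of 52 genes were lower and 6 higher. These windows were read after the values were known and carry no test.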
